A study of Mus musculus with 4 samples.

Results

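The genes described here are those of the Wnt pathway: secreted ligands, cell surface receptors, secreted inhibitors, feedback targets and beta-catenin. Messenger RNA was measured in dorsal skin at postnatal day 16 on an Affymetrix array that covers the mouse genome. There were 2 bitransgenic mice, which overexpressed deltaNp63alpha, the p63 isoform of basal keratinocytes, and 2 wild type mice, with 1 array per animal (n = 2 per group throughout). The sources used here do not give the promoter that drives the transgene, an inducing treatment, the strain or the sex of the animals. The members were 40 listed gene symbols, and every probe set annotated with 1 of these symbols alone was taken. This gave 81 probe sets for 39 of the 40 genes, out of 18193 genes that the annotation names on the array. Tcf7 had no probe set of its own in that annotation and was not analysed here. A probe set was tested where its mean of log2(signal + 16) reached the 40th percentile of all probe sets, a signal of 57.0. In all, 61 of the 81 probe sets passed this filter and stood for 31 genes. Each gene was tested with limma through its probe set of highest mean, and differences are bitransgenic minus wild type on the log2(signal + 16) scale. The added 16 pulls the differences of dim genes toward 0.

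Wnt proteins are secreted lipid-modified ligands that bind Frizzled receptors and their partners Lrp5 and Lrp6. In the canonical branch this halts the destruction of beta-catenin, which enters the nucleus and acts through Tcf and Lef proteins on target genes, several of which restrain the pathway. Other Wnts, such as Wnt5a, are best known for branches that do not need beta-catenin. In skin the pathway is known for starting hair follicles in the embryo, for the growth phase of the hair cycle and for the differentiation of the hair shaft in the hair matrix.

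The promoters of 4 genes, 1 ligand and 3 feedback targets, are shown as examples, since the Tcf and Lef proteins of the pathway bind a short known core. The 4 were picked among the genes whose signals were lower in bitransgenic skin at an unadjusted p under 0.05, and not by a further rule. Each sequence gives the 250 bases before a RefSeq transcription start in GRCm38.p6, read 5′ to 3′ on the strand of the gene. Capitals mark a match to CTTTGAA or to CTTTGAT, or to CTTTGTA or to CTTTGTT, searched on both strands. Both matches shown lie on the opposite strand and so read as the reverse complement, ATCAAAG in Wnt11 and TACAAAG in Lef1. Lef1 has several starts in the table, of which the outermost and the single one with a match, inside the gene, are shown. The only Axin2 start listed also lies inside the gene, so the bases before the outermost end of Axin2 were not searched. A further Wnt11 start in the table had no match and is not shown.
Wnt11 promoter, chr7:98834862-98835111, plus strand: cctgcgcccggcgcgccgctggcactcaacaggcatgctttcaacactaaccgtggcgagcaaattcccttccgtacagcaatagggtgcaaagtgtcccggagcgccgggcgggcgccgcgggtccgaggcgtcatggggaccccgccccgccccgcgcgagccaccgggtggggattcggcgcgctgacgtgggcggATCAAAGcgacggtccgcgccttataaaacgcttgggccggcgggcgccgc
Lef1 promoter at the outermost start, chr3:131110047-131110296, plus strand: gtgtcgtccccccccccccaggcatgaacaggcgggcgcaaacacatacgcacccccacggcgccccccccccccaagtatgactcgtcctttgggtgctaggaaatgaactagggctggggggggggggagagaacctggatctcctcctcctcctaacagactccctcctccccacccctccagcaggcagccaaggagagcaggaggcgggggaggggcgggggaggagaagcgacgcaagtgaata
Lef1 promoter at an inner start, chr3:131156044-131156293, plus strand: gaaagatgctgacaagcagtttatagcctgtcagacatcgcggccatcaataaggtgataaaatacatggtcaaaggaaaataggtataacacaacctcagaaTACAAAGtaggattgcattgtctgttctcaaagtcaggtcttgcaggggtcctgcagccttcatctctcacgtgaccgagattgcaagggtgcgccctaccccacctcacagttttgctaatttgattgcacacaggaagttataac
Nkd2 promoter, chr13:73847632-73847881, minus strand: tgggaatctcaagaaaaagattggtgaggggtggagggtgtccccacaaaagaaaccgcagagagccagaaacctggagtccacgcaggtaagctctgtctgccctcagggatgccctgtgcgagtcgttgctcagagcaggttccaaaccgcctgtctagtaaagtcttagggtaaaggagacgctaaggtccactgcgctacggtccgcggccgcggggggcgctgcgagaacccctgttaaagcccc
Axin2 promoter, chr11:108920099-108920348, plus strand: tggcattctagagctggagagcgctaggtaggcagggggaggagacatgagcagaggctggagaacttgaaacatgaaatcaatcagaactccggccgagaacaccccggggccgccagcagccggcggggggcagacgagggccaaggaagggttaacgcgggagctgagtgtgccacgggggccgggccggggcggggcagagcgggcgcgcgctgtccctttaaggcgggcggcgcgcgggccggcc
The match in Wnt11 begins 51 bases before the start, and that in the inner Lef1 promoter 147 bases before it. Of 31 promoters of the 24 genes that had an entry, 5 held a match, those of Wnt11, Lef1, Fzd7, Sp5 and Dkk1. Fzd4, Frzb and Wif1, also lower at an unadjusted p under 0.05, had an entry without a match and are not shown. Among all 32851 promoters of the RefSeq table, 14.8% held one. A match is a stretch of letters and not a measured binding site.

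The transgene was visible on the arrays: 2 of the 4 Trp63 probe sets were 28.9-fold and 23.1-fold higher in bitransgenic skin (adjusted p = 0.0345 and 0.0343 in limma's fit of 27022 probe sets). Arrays of 1 genotype correlated at 0.949 (bitransgenic) and 0.918 (wild type), and wild type replicate 2 correlated as closely, at 0.920, with bitransgenic replicate 2. Bacterial spike-in signals averaged 1598 and 465 on the bitransgenic arrays and 1528 and 328 on the wild type arrays, so they differed by replicate number within both genotypes. The Y-linked gene Eif2s3y was high on bitransgenic replicate 2 and wild type replicate 1, and Xist on the other array of each genotype. Thus the genotypes differed in both genes at each replicate number.

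The cells of the samples also differed by their markers, and whether this had a part in the Wnt values below was not tested. In whole skin, fewer cells of a type and less RNA per cell cannot be told apart. The summed signal of 9 of 10 listed hair matrix and precortex markers, those past the filter, was 4032 and 7446 in bitransgenic skin, against 18991 and 47216 in wild type skin. All 9 had lower means in bitransgenic skin, 8 without overlap, and the hair keratin Krt31 passed the threshold. For the counts of all lists here, 49.5% of all genes tested had a negative log2 difference. Without overlap, 24.9% of all genes lay lower and 23.9% higher, while 1.58% were called lower and 0.75% higher. None of the 9 was at 0, the lowest signal on any array being 64.6. The summed signal of 8 follicle bulge markers was 9533 and 13090 in bitransgenic and 37560 and 26036 in wild type skin, with 7 of 8 log2 differences negative, the keratin Krt15 past the threshold and a lowest signal of 431. That of 8 dermal fibroblast markers was 61966 and 80702 in bitransgenic and 134301 and 117160 in wild type skin, with 7 of 8 log2 differences negative, none past the threshold and a lowest signal of 719. That of 4 fat cell markers was 21600 and 28292 in bitransgenic and 47060 and 46697 in wild type skin, with all 4 means lower and a lowest signal of 105. That of 7 skeletal muscle markers was 15567 and 20505 in bitransgenic and 167137 and 70321 in wild type skin, with all 7 means lower, 5 past the threshold and a lowest signal of 78.8. Melanocyte markers summed to 2191 and 2409 in bitransgenic skin and to 2290 and 16538 in wild type skin, so they were high in wild type replicate 2 alone. The sums of basal keratinocyte markers overlapped between genotypes, with 52827 and 79972 in bitransgenic and 56624 and 66092 in wild type skin, and 4 of the 5 markers overlapped while Itgb4 was lower on both bitransgenic arrays. Of 6 suprabasal keratinocyte markers, which summed to 53111 and 65894 in bitransgenic and 56822 and 48748 in wild type skin, 3 had higher and 3 lower means. Among these, filaggrin, Flg, rose 4.38-fold (adjusted p = 0.0156). Of 6 dermal papilla markers 4 had lower and 2 higher means, none past the threshold, with sums of 6145 and 8427 in bitransgenic and 5398 and 3844 in wild type skin. Sostdc1 alone gave most of the bitransgenic sums, and the other 5 summed to 1760 and 2142 in bitransgenic and 3503 and 1843 in wild type skin, with overlap. Macrophage markers summed to 16208 and 22194 in bitransgenic and 11882 and 7602 in wild type skin, with higher means for all 5. Cell division genes summed to 25256 and 27796 in bitransgenic and 10807 and 20407 in wild type skin, with higher means for all 9, none past the threshold. Sebaceous gland, endothelial and T cell markers were listed too, and the sums of each list overlapped between genotypes. Their median log2 differences were 0.060, -0.020 and -0.027.

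**Figure D1:**
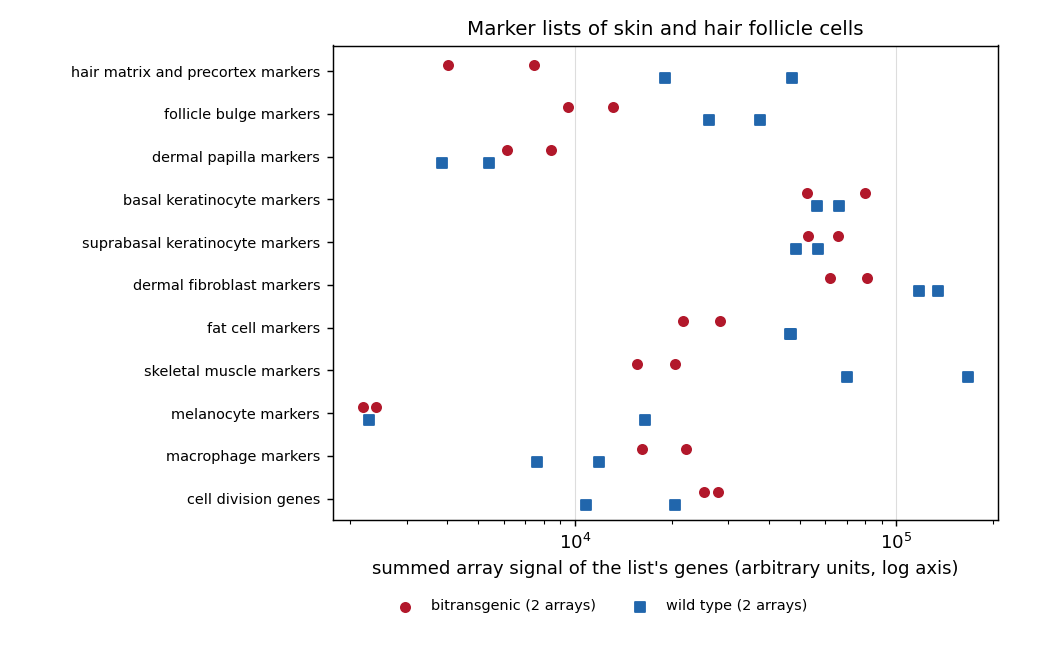
Summed array signal (horizontal log axis, arbitrary units) of the genes of 11 marker lists, with 2 bitransgenic arrays (red circles) above 2 wild type arrays (blue squares) in each row. Hair matrix, bulge, fibroblast, fat and muscle sums lie lower on both bitransgenic arrays than on both wild type arrays, and the melanocyte sum is high on 1 wild type array.

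The comparison asked which messages of the Wnt pathway go with an excess of deltaNp63alpha in skin. Wnt5a, a ligand, fell 7.54-fold, and it was the 1 gene among the 31 tested that passed the threshold of 0.05 on limma's Benjamini-Hochberg adjusted p. No member passed in the other direction. Over all 13070 genes tested, 1.58% were called lower and 0.75% higher. At an unadjusted p under 0.05, 10 of the 31 were lower and 1, Wnt10a, was higher, against 9.76% and 6.91% of all genes. The 10 were Wnt5a, Wnt11, Fzd4, Sfrp4, Frzb, Wif1, Axin2, Lef1, Nkd2 and Notum. In 16 of the 31 both bitransgenic arrays lay below both wild type arrays and in 4 above them, against 24.9% and 23.9% of all genes. The log2 difference was negative for 21 of the 31, against 49.5% of all genes. The members were listed with earlier results of these data known, so these counts describe them and are no independent evidence of a direction. The means of Lef1 and Frzb passed the filter in wild type skin only, so those genes could enter the test only by being higher there. The median log2 difference was -0.53 over the 31 members and 0.0053 over all genes tested.

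**Figure D2:**
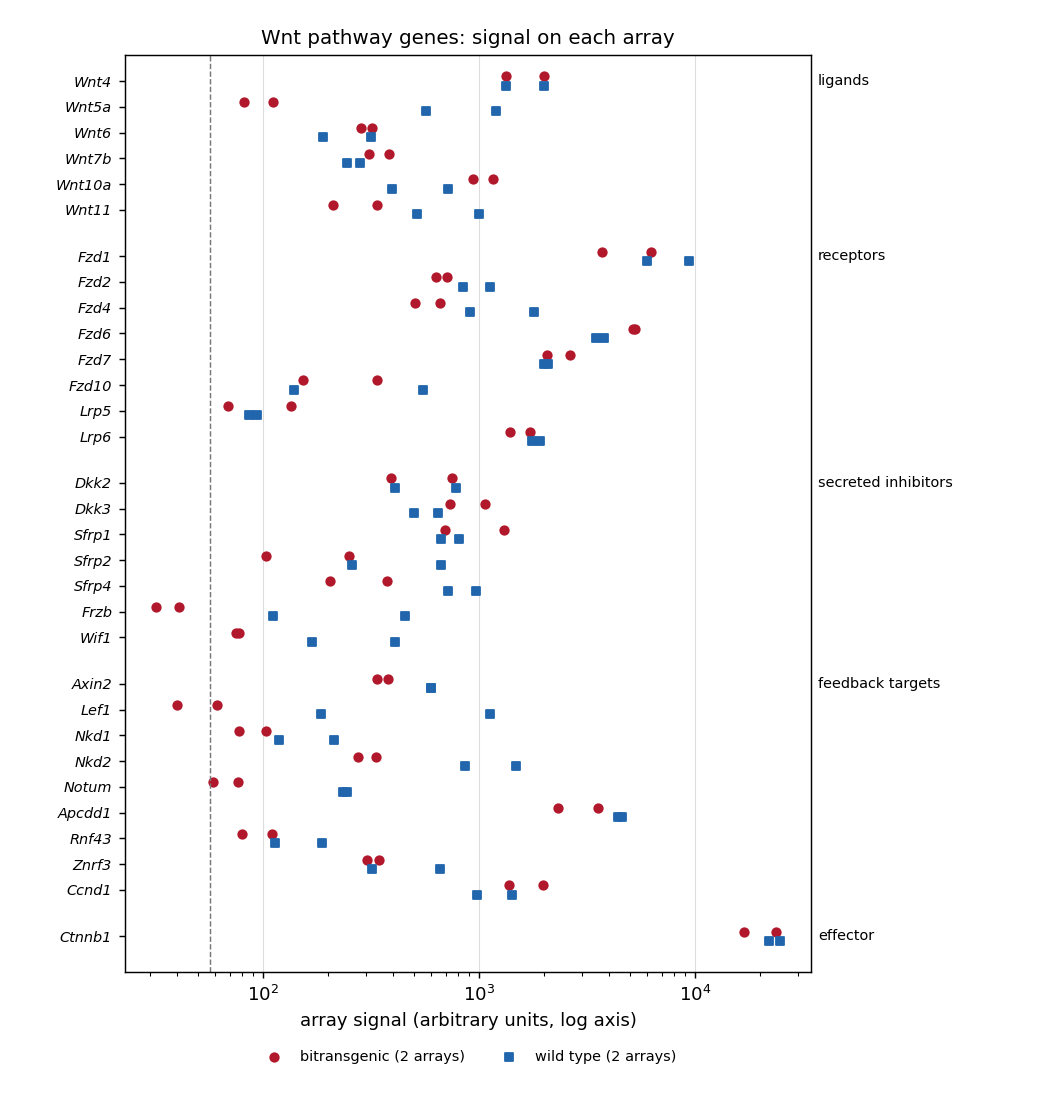
Array signal (horizontal log axis, arbitrary units) of the 31 tested Wnt pathway genes, grouped by role, with 2 bitransgenic arrays (red circles) above 2 wild type arrays (blue squares) in each row and the filter signal of 57.0 as a dashed line. Wnt5a, Wif1, Nkd2, Notum and Axin2 show gaps between the genotypes, while Wnt4, Dkk2 and Ctnnb1 overlap.

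The first group was the ligands. Wnt5a, which steers cell movement and polarity, read 81.5 and 111 in bitransgenic skin, against 565 and 1199 in wild type skin. Both bitransgenic arrays lay below both wild type arrays, with log2 differences of -2.57 and -3.25 within replicate numbers 1 and 2, although the wild type arrays themselves stood more than 2-fold apart. The log2 difference was -2.91 ± 0.44 (SE), and it had an adjusted p = 0.0298 in limma's fit of 13070 genes. The call was lost without either bitransgenic array, where the log2 difference was -2.72 without replicate 1 and -3.11 without replicate 2. Over all genes, fewer were called without either bitransgenic array and more without either wild type array. A call gained or lost with 1 array left out, here and below, is therefore not particular to the gene. With the mean of the 3 probe sets past the filter the Wnt5a call was lost as well (-2.25, adjusted p = 0.0940).

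Wnt11, another ligand known mainly for branches without beta-catenin, read 210 and 335 in bitransgenic and 513 and 1002 in wild type skin. The groups did not overlap, and the log2 difference of -1.38 ± 0.42 (SE) did not pass (adjusted p = 0.165), except without wild type replicate 1 (-1.85, adjusted p = 0.0481). It was -0.91 without wild type replicate 2 (adjusted p = 0.237). Wnt10a, a canonical ligand of hair and tooth development, lay higher on both bitransgenic arrays, with 940 and 1158, against 397 and 718 on the wild type arrays. Its difference was 0.94 ± 0.35 (SE) with an adjusted p of 0.250, and it passed without wild type replicate 2 (1.36, adjusted p = 0.0457) but was 0.53 without wild type replicate 1 (adjusted p = 0.503).

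Of the other ligands, Wnt4 read 1327 and 2002 in bitransgenic and 1327 and 2000 in wild type skin, so the genotypes matched closely at each replicate number (0.0013, 95% interval -0.78 to 0.78). A change of 2-fold in either direction lay outside that interval. Wnt7b, a canonical ligand of the epidermis and hair, read 381 and 310 in bitransgenic and 244 and 280 in wild type skin, and its log2 difference was 0.37 ± 0.31 (SE). Wnt6 overlapped between the groups, with 284 and 318 in bitransgenic and 189 and 314 in wild type skin. Thus 4 of the 6 tested ligands had higher means and 2 had lower means in bitransgenic skin, while 49.5% of all genes had a negative log2 difference. The 4 include Wnt4 at 0.0013 and Wnt6, which overlapped, so no direction of the ligands is read from this count.

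The remaining 4 ligands stayed below the filter and were not tested. Wnt3a, a canonical ligand, read 10.8 and 15.2 in bitransgenic and 82.4 and 118 in wild type skin, with both bitransgenic values below the filter signal. Wnt3 read 24.5 and 12.7 in bitransgenic and 39.4 and 51.2 in wild type skin, from a probe set of suffix _x_at that can also read related sequences. Wnt10b read 15.7 on both bitransgenic arrays and 16.2 and 14.1 on the wild type arrays. Wnt16 read 21.8 and 54.3 in bitransgenic and 72.0 and 41.5 in wild type skin. Both wild type values of Wnt3a lay above the filter signal, but its mean over all arrays did not reach the filter. No order is read for these untested ligands.

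**Figure D3:**
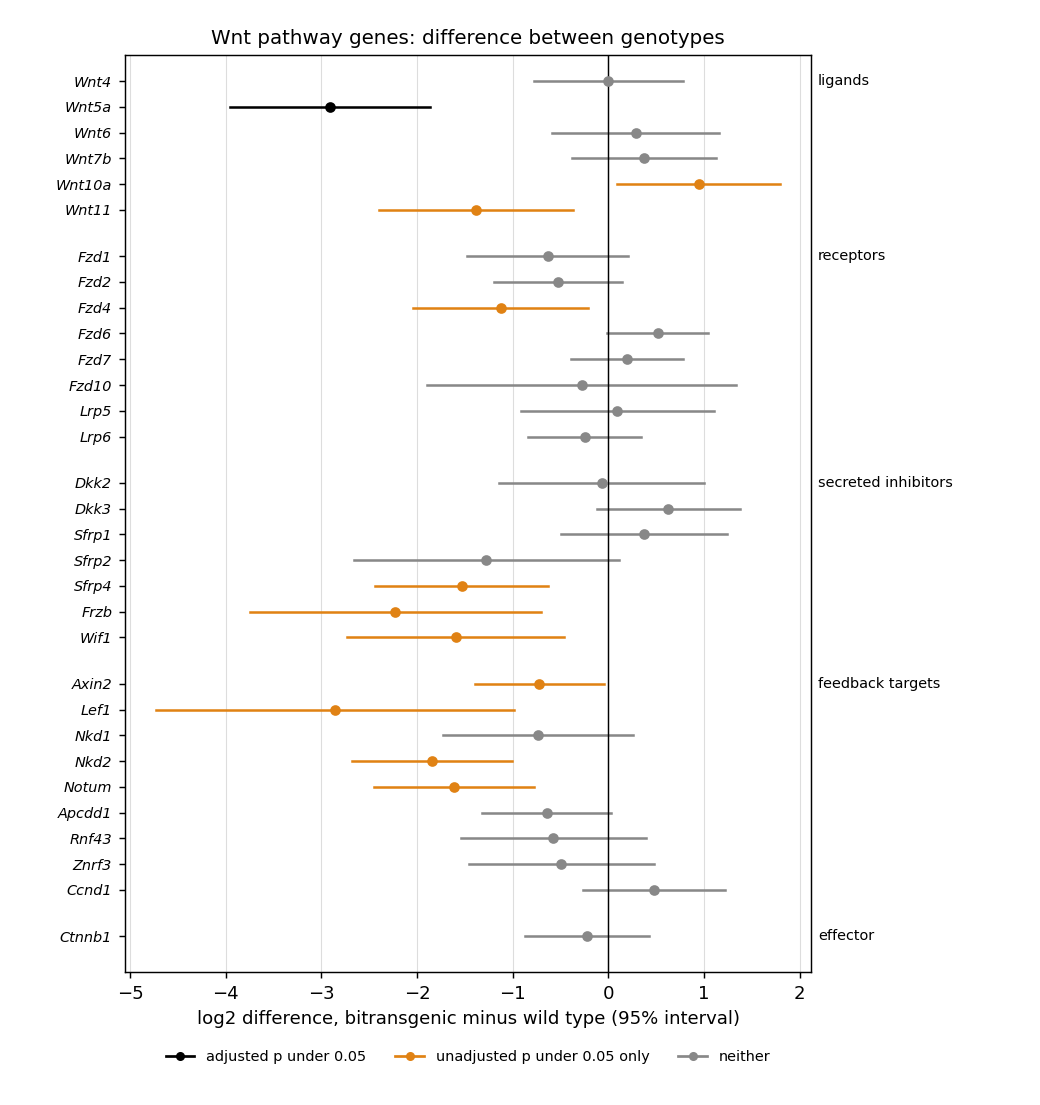
Log2 difference, bitransgenic minus wild type, with its 95% interval (horizontal axis) for the 31 tested genes grouped by role, in black for an adjusted p under 0.05, orange for an unadjusted p under 0.05 only and grey for neither. Wnt5a at -2.91 is the single black point, and 8 of the 9 tested feedback targets lie below 0.

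None of the 8 receptor genes passed, and their log2 differences ran from -1.13 for Fzd4 to 0.52 for Fzd6. Their median of -0.26 ran from -0.51 to 0.078 with 1 array left out, so its sign depended on bitransgenic replicate 1. Fzd4, a receptor known also for the Norrin ligand of blood vessels, read 507 and 656 in bitransgenic skin, against 1794 and 908 in wild type skin. The groups did not overlap, but wild type replicate 2 lay nearer to the bitransgenic arrays than wild type replicate 1 did. Its difference was -1.13 ± 0.38 (SE) with an adjusted p of 0.207, and without wild type replicate 2 it passed (-1.61, adjusted p = 0.0265). Without wild type replicate 1 it was -0.64 (adjusted p = 0.430). A further Fzd4 probe set gave -0.80 ± 0.30.

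Fzd6, whose loss in mice turns hair follicles out of line, showed close replicates, with 5229 and 5134 in bitransgenic and 3455 and 3794 in wild type skin. This was 1.43-fold higher in bitransgenic skin without overlap, and it did not pass (adjusted p = 0.315). Fzd1 read 3711 and 6221 in bitransgenic and 5983 and 9333 in wild type skin, with overlap. Fzd2 lay lower on both bitransgenic arrays, with 628 and 708, against 1116 and 841 on the wild type arrays. For Fzd7 the values were 2053 and 2627 in bitransgenic and 2072 and 1988 in wild type skin. Fzd10 varied more within the genotypes than between them, with 153 and 336 in bitransgenic and 139 and 551 in wild type skin.

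The coreceptors Lrp5 and Lrp6 had differences near 0. Lrp6 read 1380 and 1711 in bitransgenic and 1905 and 1748 in wild type skin, slightly lower on both bitransgenic arrays. Its log2 difference was -0.25 (95% interval -0.84 to 0.35), with an interval that leaves out a change of 2-fold. The other Lrp6 probe set gave 0.085 (95% interval -1.34 to 1.51), which does not leave it out. Lrp5 read 68.6 and 134 in bitransgenic and 85.8 and 93.8 in wild type skin, close to the filter (0.091, 95% interval -0.92 to 1.10).

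Of the 9 listed inhibitors, 7 were tested and none passed. Of these, 4 lay lower on both bitransgenic arrays (24.9% of all genes), while Dkk3 lay higher. The 4 include Frzb, whose mean passed the filter in wild type skin only. Wif1, which binds Wnt ligands outside the cell, read 74.8 and 77.1 in bitransgenic and 168 and 405 in wild type skin. The bitransgenic arrays were alike and the wild type arrays were not, with replicate 2 the higher. The log2 difference was -1.60 ± 0.47 (SE) with an adjusted p of 0.153. It passed without wild type replicate 1 (-2.20, adjusted p = 0.0318) and was -0.997 without wild type replicate 2.

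Frzb, a secreted Frizzled-related protein also called Sfrp3, read 31.9 and 40.6 in bitransgenic skin, below the filter signal, and 452 and 111 in wild type skin. Wild type replicate 1 was the higher, the reverse of Wif1 and Lef1. Its difference of -2.23 ± 0.63 (SE) did not pass (adjusted p = 0.141), but did without wild type replicate 2 (-3.17, adjusted p = 0.00819), and was -1.29 without wild type replicate 1. With pseudocounts of 1 and 64 it was -2.61 and -1.59.

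Sfrp4, of the same family, read 203 and 372 in bitransgenic and 961 and 716 in wild type skin, with no overlap (-1.53 ± 0.38, SE, adjusted p = 0.106). Sfrp2, abundant in dermal fibroblasts, read 103 and 250 in bitransgenic and 662 and 257 in wild type skin. Its log2 difference was -2.51 within replicate number 1 and -0.036 within replicate number 2, with a mean of -1.27 ± 0.58 (SE). Sfrp1, known as an inhibitor of the follicle bulge, overlapped, with 692 and 1303 in bitransgenic and 662 and 802 in wild type skin.

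The Dickkopf genes differed among themselves. Dkk3, a divergent member with an unsettled role in Wnt signalling, read 732 and 1062 in bitransgenic and 642 and 498 in wild type skin (0.63 ± 0.31, SE, adjusted p = 0.388). Dkk2, which blocks Lrp5 and Lrp6, read 744 and 390 in bitransgenic and 782 and 409 in wild type skin, so it followed the replicate number and not the genotype. Dkk1, the best known blocker of the coreceptors, stayed below the filter at 33.3 and 26.4 in bitransgenic and 32.5 and 37.9 in wild type skin on its brighter probe set. Dkk4, a target and inhibitor of the pathway in hair placodes, stayed below it as well, with 11.7 and 29.4 in bitransgenic and 11.7 and 6.3 in wild type skin. The agonist Rspo3, which keeps Wnt receptors at the surface, read 36.4 and 32.7 in bitransgenic and 128 and 46.9 in wild type skin and was not tested.

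The feedback targets are genes that beta-catenin switches on in many tissues, and several of them restrain the pathway. Of 9 tested, none passed. In all, 8 had lower means, against 49.5% of all genes, and 7 lay lower on both bitransgenic arrays, against 24.9%. Both counts include Lef1, whose mean passed the filter in wild type skin only. The median was 1.65-fold lower (log2 -0.72). Axin2, a scaffold of the complex that destroys beta-catenin and the most used read-out of the canonical branch, read 377 and 337 in bitransgenic and 600 and 597 in wild type skin. The replicates were close and the groups well apart, at 1.65-fold, with a log2 difference of -0.72 ± 0.28 (SE). Its unadjusted p was 0.0388 and its adjusted p 0.266, and the value stayed between -0.80 and -0.64 under all 14 alternative settings.

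Lef1, the nuclear partner of beta-catenin in the hair matrix and precortex, read 61.1 and 40 in bitransgenic and 185 and 1115 in wild type skin. The wild type arrays stood 2.49 apart on the log2 scale, the widest gap among the 31 members, with replicate 2 the higher, as for the hair matrix and melanocyte sums given above. The difference was -2.86 ± 0.78 (SE) with an adjusted p of 0.130. It was -4.11 without wild type replicate 1 (adjusted p = 0.00354) and -1.62 without wild type replicate 2 (adjusted p = 0.0978).

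Nkd2, which binds Dishevelled and limits the signal, read 274 and 333 in bitransgenic and 860 and 1472 in wild type skin. It was 3.59-fold lower without overlap (-1.84 ± 0.35, SE) and came near the threshold with an adjusted p of 0.0568. It passed without wild type replicate 1 (-2.22, adjusted p = 0.0132) and without wild type replicate 2 (-1.46, adjusted p = 0.0486), while the value was negative with each array left out. Nkd1, its relative, read 103 and 77.0 in bitransgenic and 212 and 118 in wild type skin (-0.73 ± 0.41, SE).

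Notum, an enzyme that removes the lipid from Wnt proteins, had close replicates, with 58.3 and 76.7 in bitransgenic and 233 and 244 in wild type skin. It was 3.06-fold lower without overlap (-1.61 ± 0.35, SE), and its adjusted p of 0.0793 missed the threshold. Apcdd1, a membrane inhibitor whose human gene is mutated in a hereditary hair loss, read 2302 and 3553 in bitransgenic and 4569 and 4404 in wild type skin. Its difference of -0.65 ± 0.28 (SE) was given by a probe set of suffix _x_at, and the _at probe set of highest signal gave -0.66 ± 0.27.

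The ubiquitin ligases Rnf43 and Znrf3, which clear Frizzled receptors from the surface, did not pass. Rnf43 read 109 and 79.4 in bitransgenic and 114 and 188 in wild type skin, so bitransgenic replicate 1 lay close to wild type replicate 1 and the groups just failed to overlap. Znrf3 read 303 and 342 in bitransgenic and 320 and 658 in wild type skin, so wild type replicate 2 stood apart from the other 3 arrays. Ccnd1, the cyclin D1 gene, which many growth signals raise, was the 1 tested target with a higher mean in bitransgenic skin, at 1372 and 1966, against 980 and 1414 in wild type skin (0.47 ± 0.31, SE). Sp5, a transcription factor target, stayed below the filter, with 24.8 and 18.0 in bitransgenic and 5.6 and 3.3 in wild type skin.

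Ctnnb1 encodes beta-catenin, which also joins cadherins at cell contacts. It read 16831 and 23567 in bitransgenic and 21905 and 24641 in wild type skin. The groups overlapped, and the log2 difference of -0.22 (95% interval -0.87 to 0.42) left a change of 2-fold outside its interval. This held for the brightest probe set only. The other Ctnnb1 probe sets gave -0.30 (95% interval -1.49 to 0.89) and -0.42 (-1.43 to 0.60), and these intervals include a 2-fold fall. Arrays read its messenger RNA and not the stabilised protein through which the pathway acts.

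Probe sets of 1 gene did not always give the same value. Tested one by one among 27022 probe sets, 0 of the 61 probe sets of these genes passed limma's threshold, while 17 were lower and 1 higher at an unadjusted p under 0.05. Among all probe sets tested, 0.555% were called lower and 0.207% higher, and 7.01% and 5.19% lay below an unadjusted p of 0.05. Wnt5a gave -2.91, -2.49 and -1.34 through its 3 probe sets past the filter (adjusted p = 0.0580 for the first), and the mean of the fourth stayed below the filter. Nkd2 gave -2.30, -2.04 and -1.84 through 3 probe sets and -0.14 through 1 of suffix _x_at. Nkd1 gave -1.08, -0.73, -0.19 and 0.63, so its direction depended on the probe set. Dkk3 gave 0.63 and -0.15, and Lrp6 -0.25 and 0.085. In the other 13 of the 16 genes with several probe sets past the filter, all had the same sign, among them 5 probe sets each of Sfrp1 and Apcdd1. The mean of 5 probe sets passed the filter in wild type skin only, namely both of Lef1 (-2.86 and -1.92), that of Frzb, the Wnt5a one at -2.49 and the Nkd1 one at -1.08. A negative sign was favoured for these by the filter, so they do not bear on the agreement between probe sets. The mean of 1 Fzd7 probe set (0.45) passed in bitransgenic skin only, so a positive sign was favoured for it in the same way.

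**Figure D4:**
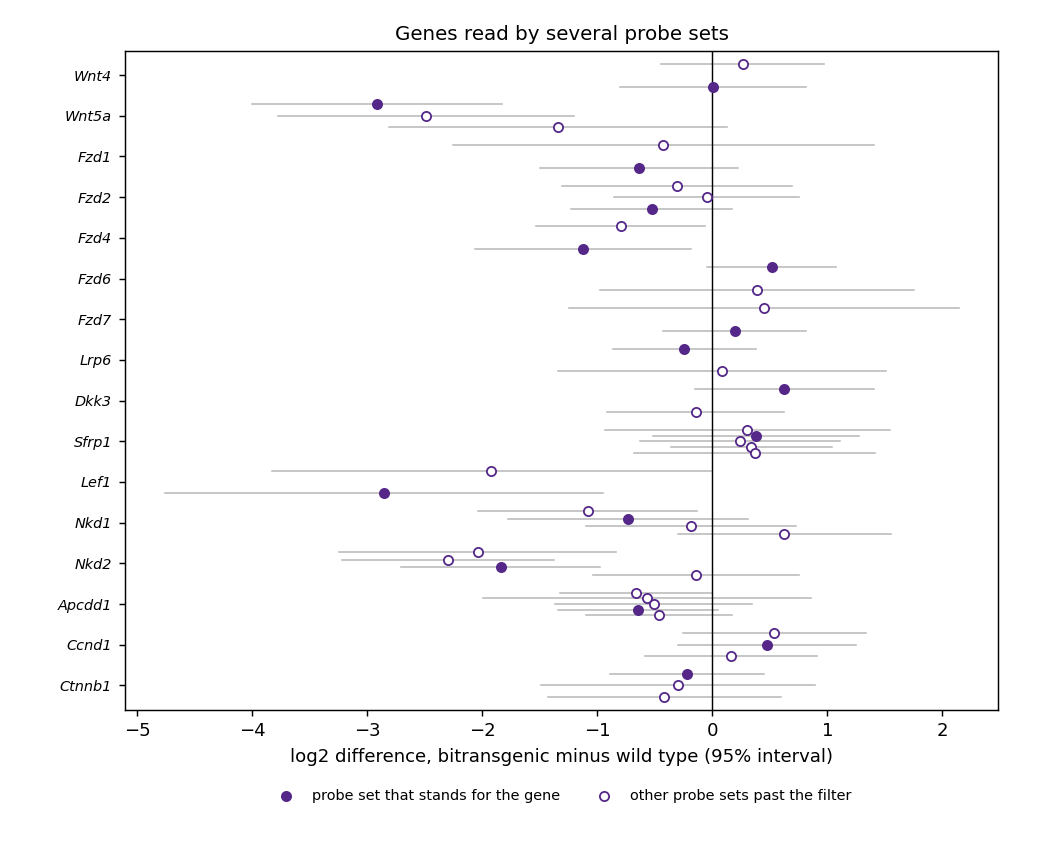
Log2 difference, bitransgenic minus wild type, with its 95% interval (horizontal axis) for each probe set past the filter of the 16 genes that have several, the filled point being the probe set that stands for the gene. Sfrp1 and Apcdd1 cluster tightly, while Nkd1 runs from -1.08 to 0.63 and 1 Nkd2 probe set lies near 0.

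The spread between animals limited these comparisons. Within both replicate numbers 28 of the 31 genes had the same sign, and the share over all genes was not computed. Arrays of equal number differed in Eif2s3y and Xist as given above, and the labels do not pair them. Among the 31 genes, 7 stood more than 2-fold apart between the wild type arrays, against 2 between the bitransgenic arrays. Wnt5a, Fzd10, Wif1, Lef1 and Znrf3 were the higher in wild type replicate 2, and Sfrp2 and Frzb in wild type replicate 1. In bitransgenic skin the 2 were Fzd10 and Sfrp2, both higher in replicate 2. An exact permutation test of 2 against 2 arrays cannot give a two-sided p below 0.333, so all calls rest on the spread that limma pools over genes.

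A further 74 genes of the pathway were listed, of which 59 were tested. Bmp4 and Prickle1 passed as lower and none as higher (1.58% and 0.75% of all genes). In all, 17 were lower and 4 higher at an unadjusted p under 0.05 (9.76% and 6.91% of all genes). The means of Eda and Wnt2, among the 17, passed the filter in wild type skin only, so these genes could be tested only by being higher there. The median log2 difference over the 59 was -0.24. Bmp4, a growth factor of the hair matrix and a reported Wnt target, read 159 and 278 in bitransgenic and 1684 and 1262 in wild type skin (-2.70 ± 0.36, SE, adjusted p = 0.0201 in limma's fit). Leaving out bitransgenic replicate 1 gave -2.32 and took away the call (adjusted p = 0.0829). Prickle1, a planar polarity protein, read 334 and 365 in bitransgenic and 995 and 1163 in wild type skin (-1.58 ± 0.27, SE, adjusted p = 0.0427). This call was lost when bitransgenic replicate 1 (adjusted p = 0.243) or bitransgenic replicate 2 (adjusted p = 0.178) was left out, with no filter (0.0598), with equal array medians (0.0572) and with no trend (0.0588).

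In the R-spondin branch, which strengthens Wnt signals in stem cells, 4 of the 6 further genes listed were tested, and in all 4 both bitransgenic arrays lay below both wild type arrays (24.9% of all genes) without passing the threshold. Lgr5, a receptor of follicle stem cells and also 1 of the bulge markers above, read 431 and 568 in bitransgenic and 1376 and 1354 in wild type skin (-1.43, adjusted p = 0.0574). Lgr6, a related receptor, read 110 and 106 in bitransgenic and 562 and 326 in wild type skin (-1.84, adjusted p = 0.0687). Both passed without wild type replicate 2 (adjusted p = 0.0421 and 0.0177). The secreted agonist Rspo1 read 71.7 and 58.0 in bitransgenic and 258 and 164 in wild type skin (-1.46, adjusted p = 0.123). The fourth gene, Lgr4, had a log2 difference of -0.97.

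Among the other pathway genes of smallest p, Sostdc1 and Dact2 lay higher in bitransgenic skin. Sostdc1, a secreted inhibitor of Wnt and BMP signals that is also 1 of the dermal papilla markers above, read 4385 and 6285 in bitransgenic and 1895 and 2002 in wild type skin (1.42 ± 0.26, SE, adjusted p = 0.0531). Dact2, which acts on Dishevelled, read 225 and 340 in bitransgenic and 30.2 and 108 in wild type skin (1.95 ± 0.54, SE, adjusted p = 0.137). For both genes the genotypes did not overlap, and neither passed with all 4 arrays. Both passed without wild type replicate 2 (adjusted p = 0.0377 and 0.0148).

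Of 9 further reported targets tested, 6 were lower and 3 higher in bitransgenic skin without overlap (24.9% and 23.9% of all genes). Bmp4 was the 1 that passed (1.58% of all genes were called lower). The 6 lower ones include Eda, whose mean passed the filter in wild type skin only. The 3 higher ones were Myc, Cd44 and Ccnd2 (1.84-fold, 2.15-fold and 1.26-fold), named here after their values were seen. Msx2, Foxn1 and Eda, genes of hair development listed as reported targets, lay lower on both bitransgenic arrays, with log2 differences of -3.55, -1.75 and -1.55 and adjusted p of 0.0682, 0.114 and 0.113 in limma's fit. Msx2 and Foxn1 are also hair matrix markers above, and passed without wild type replicate 1 (adjusted p = 0.0154 and 0.0240), Msx2 also without bitransgenic replicate 2 (adjusted p = 0.0274). The ligand Wnt2 (-1.28) and the secreted protein Serpinf1 (-1.34) lay lower in the same way and did not pass, except Serpinf1 without wild type replicate 2 (adjusted p = 0.0170). Of 10 genes of the cytoplasmic chain tested, none passed, with a median log2 difference of -0.030, and none of 10 nuclear partners did, with a median of -0.085. None of 8 further receptors passed, with a median of -0.23.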

How the data were processed

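The deposited values are probe set signals, that is, intensity on a linear scale, from single-colour arrays of total RNA extracted with TRIzol and column-purified, per the labels' protocols. The submitters' processing notes name MAS5 and affy, without versions or order. The trimmed mean of the deposited intensity was 500 on every array, so a value is relative to its array. The only transformation was log2(signal + 16). Probe sets under the 40th percentile of the mean (6.19) were left out. The annotation of the platform gave 1 symbol to 34945 of 45101 probe sets. The probe set of highest mean stood for a gene. Genotypes were compared with limma 3.58.1 (R 4.3.3), with variances moderated along an intensity trend (2 residual and 4.45 prior degrees of freedom) and p-values adjusted by the Benjamini-Hochberg method over 13070 genes. The method was tested on simulated data with known changes. These data were drawn from the variance model that limma assumes, so the test does not show whether that model holds for these arrays. Replicates are separate animals per the labels, and their number limits the precision. Members and lists were chosen with earlier results of these data known. By rule, per-array signals were to be given for members that pass, those with an unadjusted p under 0.05, the brightest of each role and Axin2, Lef1, Ctnnb1, Dkk4 and Wif1; those of the other members were added because the list is short. Of the other pathway genes, those that pass and the next 10 by p were named, and Lgr4, Myc, Cd44 and Ccnd2 were named after their values were seen.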

Additional observations from a re-analysis of the deposited data

How the results depend on the processing

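The 14 alternatives changed the pseudocount (1 or 64), the filter (none or the 60th percentile), the scaling (quantile normalization or equal array medians), the probe sets, the trend, the block or left out 1 array. Leaving out 1 array leaves a lone array that is assumed to vary like the others. Over all genes, more were then called without either wild type array and fewer without either bitransgenic array. Counts of calls with 1 array left out are therefore not particular to the members. Of 427 values of single members under the alternatives, 402 kept their direction and their side of the threshold. Of the 31 members, 23 kept their sign under every alternative that gave a value. The number of members called lower was 0 with the mean of the probe sets, and between 0 and 5 with 1 array left out, against 1. That called higher was between 0 and 1 with 1 array left out. At an unadjusted p, 6 were lower with the filter at the 60th percentile, where fewer genes were tested, and between 7 and 12 with 1 array left out, and 2 were higher with no filter and between 0 and 1 with 1 array left out. The number of member probe sets called was between 0 and 8 with 1 array left out. Of the other pathway genes, 1 was called with no filter, with equal array medians or with no trend, and between 0 and 10 with 1 array left out.

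Values near 0 changed sign. Wnt4 was -0.0049 under quantile normalization and ran from -0.29 to 0.29 with 1 array left out, and Dkk2 was 0.0094 with equal array medians and ran from -0.52 to 0.39. With 1 array left out, Wnt6 ran from -0.061 to 0.63, Fzd10 from -1.22 to 0.65, Lrp5 from -0.32 to 0.50, Sfrp1 from -0.073 to 0.82, Znrf3 from -0.99 to 0.011 and Ctnnb1 from -0.46 to 0.021. The median of the secreted inhibitors moved from -1.27 to -0.069 with the filter at the 60th percentile, which tests fewer genes. With no filter, which adds dim genes and the agonist Rspo3, the median of inhibitors and agonist together was -0.54. The cause of the other shifts was not tested.

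The labels number the replicates alike in both groups, and nothing in them ties equal numbers to 1 litter or batch. The difference of replicate 2 and 1 correlated at 0.336 between the genotypes over 27022 probe sets. With replicate number as a block, 2 members were called lower (Wnt5a and Nkd2), 2 were higher at an unadjusted p, 5 member probe sets were called and 8 of the other pathway genes (Bmp4, Dact2, Foxn1, Lgr5, Lgr6, Msx2, Prickle1 and Sostdc1). The adjusted p of Nkd2 was then 0.0231. Over all genes tested, 438 were called lower and 207 higher with the block, against 206 and 98 without it.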
